A study of Danio rerio with 5 samples.

Results

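The Hox genes of zebrafish neuroblastoma cells are described here by cluster and paralog group, in tumors of the *TATA/TATA* and *lmo1*-/- genotypes. Members were chosen by symbol alone, as every gene named *hoxa*, *hoxb*, *hoxc* or *hoxd* followed by a paralog number and a duplicate letter, which gave 48 of the 30647 genes in the files. RNA-Seq had been performed on EGFP+ cells sorted from tumors of juvenile fish on the AB background, with 2 *TATA/TATA* libraries and 3 *lmo1*-/- libraries. Both genotypes carried *dβh:MYCN* and *dβh:EGFP*, in which the zebrafish *dβh* promoter drives human MYCN and EGFP in cells of the peripheral sympathetic system. The *TATA/TATA* fish were homozygous for a T, knocked in with a TALEN pair, in place of the G that opens a GATA site of intron 1 of *lmo1*, together with small further base changes carried by the oligonucleotide. The *lmo1*-/- fish were homozygous for a single frameshift deletion made with CRISPR-Cas9 in exon 2. Each genotype was a stable line derived from edited founders, and the labels do not say whether each library was a separate fish, so p-values measure only the spread between these libraries. The *GATA/GATA* tumors were not analysed here.

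Hox genes encode homeodomain transcription factors that give cells a position along the head-to-tail axis. They sit in clusters, and their order along a cluster follows the order in which they are expressed in the embryo, with low paralog numbers used furthest toward the head and high numbers furthest toward the tail. Zebrafish carry 7 clusters of protein-coding Hox genes after a further genome duplication in the fish lineage, and the last letter of a symbol marks the duplicate. Sympathetic neurons and the chromaffin cells of the adrenal, the cells from which neuroblastoma arises, come from neural crest of the trunk, where genes of the middle paralog groups are used in mouse and chick embryos.

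Between 48144549 and 55782865 reads were counted per library, so that a count of 1 on 1 kb of exon was worth 0.0129 to 0.0156 RPKM (reads scaled to the exon length in kilobases and to the mapped reads of the library). The *TATA/TATA* libraries differed from each other by a chi-square of 9.19 per gene and the *lmo1*-/- libraries by 113 to 140, so in neither genotype did 2 libraries agree within sampling noise, and the *lmo1*-/- libraries were the more diverse. None of 22 sympathoadrenal markers was at 0 in any library. The same held for 20 macrophage markers, so this does not check the labelled cell type. The sympathoadrenal markers summed to 1636 to 1738 RPKM in *TATA/TATA* libraries, against 1828 to 2665 RPKM in *lmo1*-/- libraries. In *TATA/TATA* libraries the macrophage markers summed to more, 2919 to 3052 RPKM. The sympathoadrenal gene *dbh* encodes the enzyme that makes noradrenaline. It had 419 and 369 RPKM in *TATA/TATA* libraries, against 546, 514 and 688 RPKM in *lmo1*-/- libraries. Counts of *lmo1* over the whole gene were 1921 and 1713 in *TATA/TATA* libraries and 2962, 2449 and 5571 in *lmo1*-/- libraries, which does not check the knockout, since the deletion removes only part of an exon.

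Hox expression in these tumors was confined to 3 clusters at the level of 1 RPKM, taken as the lower limit of expression. Of the 48 genes, 12 averaged at least 1 RPKM in *TATA/TATA* cells and 16 in *lmo1*-/- cells, which included those 12. In single libraries 12 and 12 genes reached that level in *TATA/TATA*, against 16, 15 and 13 in *lmo1*-/-. Of the 16 expressed genes, 9 belonged to *hoxba*, 4 to *hoxca* and 3 to *hoxda*. The other 32 genes were below 1 RPKM in both genotypes, 19 of them at or under 3 counts in every library, which was taken as the floor, and 7 at 0 in every library. A count of 0 leaves room for 3 counts, or 0.0386 to 0.0467 RPKM on 1 kb of exon, and covers counting error alone.

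**Figure D1:**
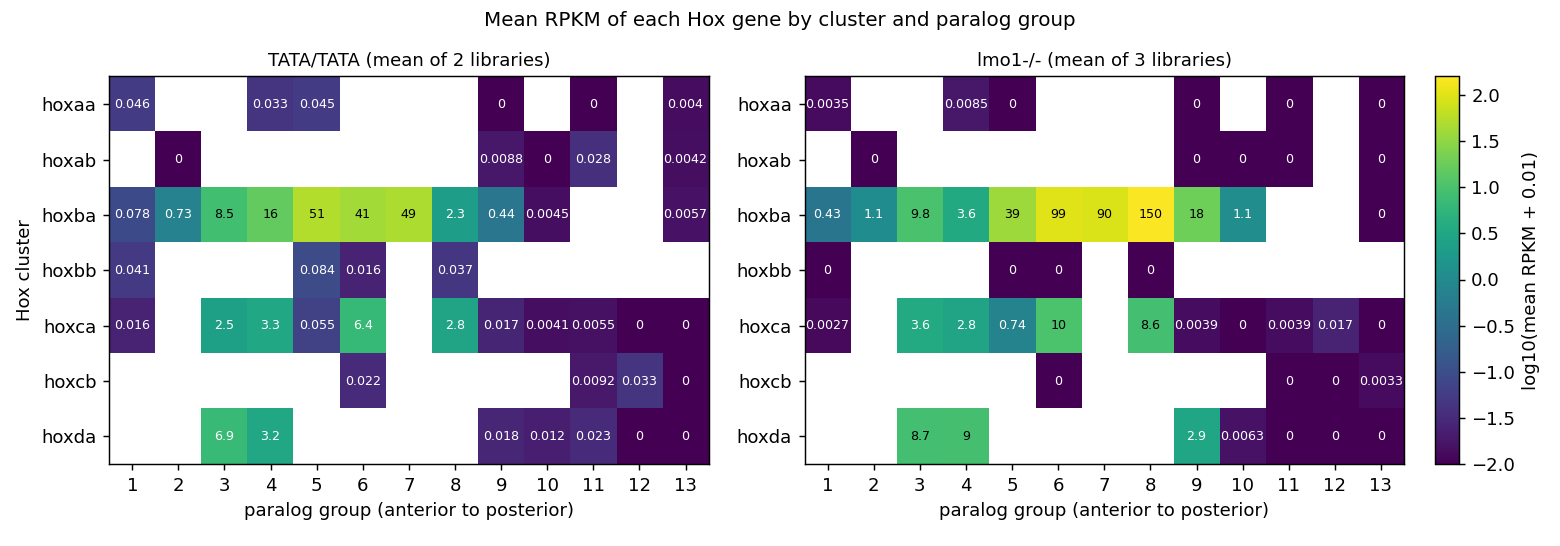
Mean RPKM of each of the 48 Hox genes, with *TATA/TATA* (2 libraries) on the left and *lmo1*-/- (3 libraries) on the right. Rows are clusters, columns are paralog groups from anterior to posterior, the number in a cell is the mean RPKM, colour is log10 of the mean RPKM + 0.01, and white cells have no gene in the files. In both genotypes the signal lies in *hoxba*, with less in *hoxca* and *hoxda*, and the other 4 clusters are near 0.

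The *hoxba* cluster carried most of the Hox RNA. Its 11 genes made up 86.4% and 87.3% of the summed Hox RPKM in *TATA/TATA* libraries, against 89.8%, 91.3% and 88.7% in *lmo1*-/- libraries. The share of *hoxca* was 8.16% and 7.30% in *TATA/TATA* libraries, against 4.41%, 3.08% and 8.54% in *lmo1*-/- libraries. For *hoxda* it was 5.25% and 5.21% in *TATA/TATA* libraries, against 5.74%, 5.58% and 2.80% in *lmo1*-/- libraries. Thus the rank of *hoxba* first was common to all 5 libraries, while *hoxda* exceeded *hoxca* in *lmo1*-/- libraries 1 and 2 alone.

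All Hox genes together came to 197 and 192 RPKM in *TATA/TATA* cells, against 419.8, 402 and 557 RPKM in *lmo1*-/- cells. The means were 194 ± 3.55 RPKM (SD, n = 2) in *TATA/TATA* and 459.5 ± 84.5 RPKM (SD, n = 3) in *lmo1*-/-, and the genotypes did not overlap. On this scale the difference in sums lay in the middle and posterior paralog groups. Groups 1 to 4 summed to 42.3 and 39.5 RPKM in *TATA/TATA* libraries, against 43.0, 38.9 and 35.5 RPKM in *lmo1*-/- libraries, which overlapped. That sum hides opposite differences between genes. *hoxb4a* averaged 15.7 RPKM in *TATA/TATA* and 3.61 RPKM in *lmo1*-/-, while *hoxd4a* averaged 3.20 and 9.05 RPKM, both without overlap. Groups 5 to 8 summed to 154 and 152 RPKM in *TATA/TATA* libraries, against 372, 339 and 482 RPKM in *lmo1*-/- libraries. Groups 9 to 13 summed to 0.615 and 0.618 RPKM in *TATA/TATA* libraries, against 4.99, 23.9 and 38.9 RPKM in *lmo1*-/- libraries. For groups 5 to 8 and for groups 9 to 13 the genotypes did not overlap. In sorted bulk cells, fewer cells of a type and less RNA per cell cannot be told apart.

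The anterior genes of *hoxba* were low or moderate. *hoxb1a*, which specifies a hindbrain segment and its facial motor neurons in zebrafish, had 12 and 6 counts in *TATA/TATA* libraries, against 43, 38 and 50 counts in *lmo1*-/- libraries, at most 0.454 RPKM. It was too low for the main test and was lower in *TATA/TATA* in the fit of all genes with a count (log2 fold change, -2.92; SE, 0.63; adjusted p = 0.012 from edgeR). *hoxb2a*, another hindbrain gene, had 0.808 and 0.645 RPKM in *TATA/TATA* libraries, against 1.16, 1.115 and 0.986 RPKM in *lmo1*-/- libraries, and was lower in *TATA/TATA* by the narrowest margin of any Hox call (log2 fold change, -1.06; SE, 0.32; adjusted p = 0.047 from edgeR). It lost that call without *lmo1*-/- library 1 (adjusted p = 0.057 from edgeR) or library 2 (adjusted p = 0.082 from edgeR), and with the library totals behind the authors' RPKM (log2 fold change, -0.58; adjusted p = 0.21 from edgeR). *hoxb3a* had 9.31 and 7.60 RPKM in *TATA/TATA* libraries, against 11.8, 9.10 and 8.43 RPKM in *lmo1*-/- libraries, which overlapped. It did not pass (log2 fold change, -0.68; SE, 0.23; adjusted p = 0.066 from edgeR), but did without *lmo1*-/- library 3 (adjusted p = 0.025 from edgeR).

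*hoxb4a*, whose mouse and human counterparts promote the expansion of blood stem cells, had a positive fold change, alone among the tested Hox genes with TMM scaling, while *hoxb5a* and *hoxc4a* joined it with the library totals behind the authors' RPKM. It had 15.4 and 16.0 RPKM in *TATA/TATA* libraries, against 2.01, 7.74 and 1.097 RPKM in *lmo1*-/- libraries, so every *TATA/TATA* value lay above every *lmo1*-/- value. The difference did not pass in edgeR (log2 fold change, 1.55; SE, 0.84; adjusted p = 0.20). Without *lmo1*-/- library 2, which lay nearest to *TATA/TATA*, it passed (log2 fold change, 2.94; adjusted p = 0.011 from edgeR), as it did with limma on log2(RPKM + 0.1) (log2 fold change, 2.55; adjusted p = 0.031).

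*hoxb5a* was among the most abundant Hox genes, and it varied widely between *lmo1*-/- tumors. Its mouse counterpart acts in the neural crest that forms the enteric nervous system. It had 53.3 and 48.8 RPKM in *TATA/TATA* libraries, inside the span of 73.9, 29.3 and 13.8 RPKM in *lmo1*-/- libraries. No difference was detected (log2 fold change, -0.10; SE, 0.67; adjusted p = 0.92 from edgeR), and its value with the authors' library totals was 0.39.

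*hoxb6a* and *hoxb7a*, trunk genes of the middle groups, were abundant in every library and lower in *TATA/TATA*. *hoxb6a* had 40.7 and 41.5 RPKM in *TATA/TATA* libraries, against 143, 87.0 and 66.4 RPKM in *lmo1*-/- libraries (log2 fold change, -1.74; SE, 0.38; adjusted p = 0.015 from edgeR), and it just missed the threshold without *lmo1*-/- library 2 (adjusted p = 0.0504 from edgeR). *hoxb7a* had 47.6 and 50.0 RPKM in *TATA/TATA* libraries, against 98.9, 84.7 and 87.0 RPKM in *lmo1*-/- libraries (log2 fold change, -1.35; SE, 0.18; adjusted p = 0.0027 from edgeR). Of the abundant *hoxba* genes, *hoxb7a* varied least among the *lmo1*-/- libraries relative to its mean, with 48.8 ± 1.67 RPKM (SD, n = 2) in *TATA/TATA* and 90.2 ± 7.61 RPKM (SD, n = 3) in *lmo1*-/-.

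The largest difference in RPKM was in *hoxb8a*, whose mouse counterpart is used in the thoracic spinal cord, in myeloid progenitors and in a subset of microglia. It had 2.26 and 2.25 RPKM in *TATA/TATA* libraries, from 319 and 304 counts. It had 44.9, 129 and 277 RPKM in *lmo1*-/- libraries, from 5398, 15037 and 36730 counts. The lowest *lmo1*-/- library thus lay far above both *TATA/TATA* libraries, while the 3 *lmo1*-/- libraries also differed widely among themselves (log2 fold change, -6.47; SE, 0.86; adjusted p = 0.0028 from edgeR). Ordered by RPKM among all genes of a library, *hoxb8a* stood at 10150 and 10188 in *TATA/TATA* libraries, against 702, 264 and 175 in *lmo1*-/- libraries.

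The next gene toward the tail, *hoxb9a*, with a mouse counterpart used at thoracic levels, followed the same order of libraries. It had 0.372 and 0.507 RPKM in *TATA/TATA* libraries, against 1.18, 15.8 and 38.5 RPKM in *lmo1*-/- libraries (log2 fold change, -5.79; SE, 1.46; adjusted p = 0.026 from edgeR). Without *lmo1*-/- library 2, whose value lay between the others, it did not pass (adjusted p = 0.072 from edgeR). *hoxb10a* had 1 and 0 counts in *TATA/TATA* libraries, against 0, 293 and 15 counts in *lmo1*-/- libraries, so its mean of 1.12 RPKM in *lmo1*-/- rested on library 2, at 3.23 RPKM. It did not pass in the fit of all genes with a count (adjusted p = 0.072 from edgeR), but did without *lmo1*-/- library 1 or 3 (adjusted p = 0.027 and 0.035 from edgeR). *hoxb13a*, at the posterior end of the cluster, had a single count in all 5 libraries.

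**Figure D2:**
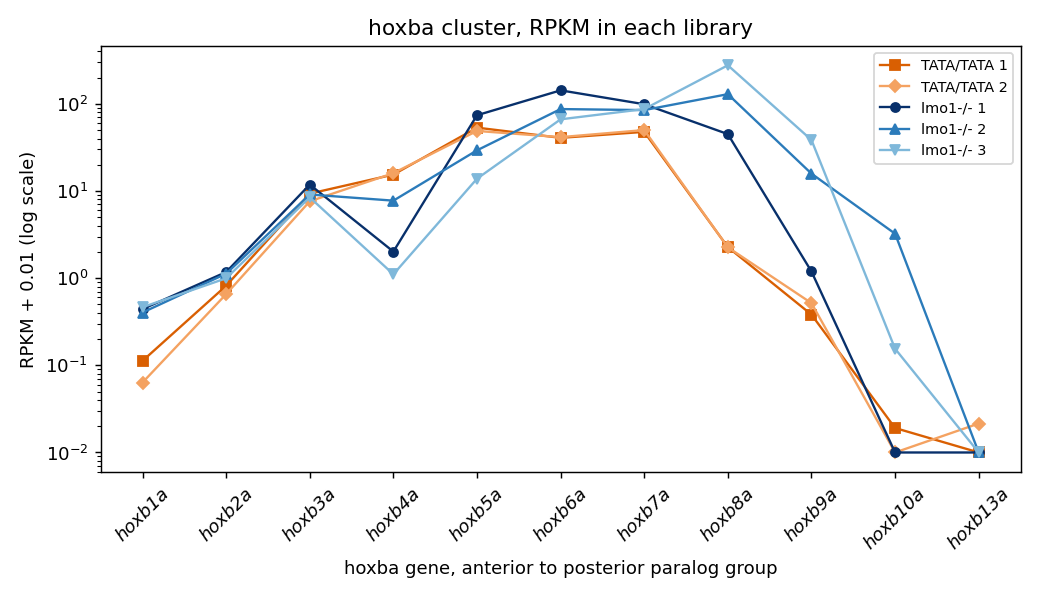
RPKM + 0.01 (log scale) of the 11 *hoxba* genes, anterior to posterior, in the 2 *TATA/TATA* libraries (orange) and the 3 *lmo1*-/- libraries (blue), 1 line per library. The *TATA/TATA* lines run together and drop from 47.6 and 50.0 RPKM at *hoxb7a* to 2.26 and 2.25 RPKM at *hoxb8a*, while the *lmo1*-/- lines part from each other on both sides of *hoxb7a*.

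The balance of genes within *hoxba* was read from ratios inside a library, which no scaling between libraries can change. The ratio of *hoxb8a* to *hoxb7a* was 0.0474 and 0.0449 in *TATA/TATA* libraries, against 0.454, 1.52 and 3.18 in *lmo1*-/- libraries. The ratio of *hoxb8a* to *hoxb5a* was 0.0424 and 0.0460 in *TATA/TATA* libraries, against 0.608, 4.41 and 20.0 in *lmo1*-/- libraries. The ratio of *hoxb4a* to *hoxb7a* moved the opposite way, at 0.324 and 0.320 in *TATA/TATA* libraries, against 0.0203, 0.0913 and 0.0126 in *lmo1*-/- libraries. None of these ratios overlapped between the genotypes, nor did those of *hoxb9a* and *hoxb5a* to *hoxb7a*. The ratio of *hoxb6a* to *hoxb7a* did overlap, at 0.854 and 0.829 in *TATA/TATA* libraries, against 1.44, 1.03 and 0.763 in *lmo1*-/- libraries. Separation was common in these data, since RPKM values were fully separate for 68.3% of all tested genes. With 2 against 3 libraries an exact two-sided permutation test cannot give less than p = 0.1, so no ratio was tested alone.

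As shares of the summed *hoxba* RPKM, *hoxb4a* and *hoxb5a* held 9.07% and 31.4% in *TATA/TATA* library 1 and 9.56% and 29.2% in library 2. In *lmo1*-/- they held 0.532% and 19.6% in library 1, 2.11% and 7.96% in library 2, and 0.222% and 2.80% in library 3. The share of *hoxb8a* was 1.33% and 1.34% in *TATA/TATA* libraries, against 11.9%, 35.1% and 56.1% in *lmo1*-/- libraries. The most abundant *hoxba* gene was *hoxb5a* in *TATA/TATA* library 1 and *hoxb7a* in library 2, and in *lmo1*-/- it was *hoxb6a* in library 1 and *hoxb8a* in libraries 2 and 3. The mean paralog number of *hoxba*, weighted by RPKM, was 5.63 and 5.70 in *TATA/TATA* libraries, against 6.19, 6.88 and 7.44 in *lmo1*-/- libraries. The *lmo1*-/- libraries therefore differed from each other by more than the nearest of them differed from *TATA/TATA*.

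**Figure D3:**
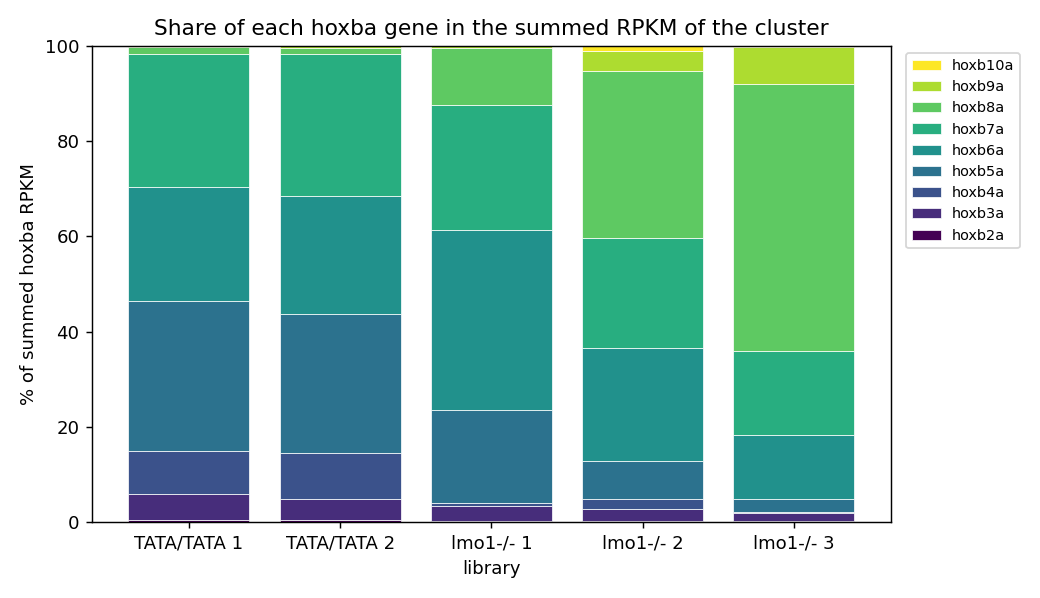
Share of each *hoxba* gene in the summed *hoxba* RPKM (%) of each library, with the *TATA/TATA* libraries on the left, and colours running from the anterior genes at the bottom of a bar (dark) to the posterior genes at the top (light). Genes under 0.2% of the cluster in every library are not distinguishable. The share of *hoxb8a* is 1.33% and 1.34% in *TATA/TATA* and 11.9%, 35.1% and 56.1% in *lmo1*-/-.

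In the *hoxca* cluster 4 of 11 genes were expressed. In RPKM each of them varied more between the *lmo1*-/- libraries than between the means of the genotypes. *hoxc6a*, which in mouse marks motor neurons at the forelimb level, was the only 1 of the 4 without overlap between the genotypes. Such separation held for 68.3% of all tested genes. *hoxc6a* had 6.69 and 6.17 RPKM in *TATA/TATA* libraries, against 8.92, 7.70 and 14.2 RPKM in *lmo1*-/- libraries. It was lower in *TATA/TATA* (log2 fold change, -1.11; SE, 0.22; adjusted p = 0.012 from edgeR), a call that was lost with the authors' library totals (adjusted p = 0.13 from edgeR). *hoxc5a* had 4 and 4 counts in *TATA/TATA* libraries, against 69, 8 and 70 counts in *lmo1*-/- libraries, at most 1.09 RPKM. It was lower in *TATA/TATA* (log2 fold change, -4.11; SE, 1.02; adjusted p = 0.024 from edgeR) and lost the call without *lmo1*-/- library 3 (adjusted p = 0.053 from edgeR).

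*hoxc8a*, which in mouse helps to set motor neuron pools of the lower forelimb level, had 2.98 and 2.59 RPKM in *TATA/TATA* libraries, against 1.21, 1.55 and 23.2 RPKM in *lmo1*-/- libraries. Its high value in *lmo1*-/- library 3, the library with the most *hoxb8a* and *hoxb9a*, gave it a negative fold change that did not pass (log2 fold change, -1.96; SE, 1.27; adjusted p = 0.28 from edgeR) and that became 0.49 without that library. *hoxc3a* had 2.73 and 2.18 RPKM in *TATA/TATA* libraries, against 1.79, 0.880 and 8.24 RPKM in *lmo1*-/- libraries, with its highest value in the same library and the same turn of sign without it. *hoxc4a* had 3.55 and 2.96 RPKM in *TATA/TATA* libraries, against 5.50, 2.11 and 0.896 RPKM in *lmo1*-/- libraries, and was lowest in library 3. Neither passed the threshold (adjusted p = 0.43 for *hoxc3a* and 0.79 for *hoxc4a* from edgeR), and the sign of *hoxc4a* turned with the authors' library totals. The ratio of *hoxc8a* to *hoxc6a* was 0.445 and 0.421 in *TATA/TATA* libraries, inside the span of 0.136, 0.202 and 1.64 in *lmo1*-/- libraries. *hoxc9a*, whose human counterpart promotes neuronal differentiation of neuroblastoma cell lines, had 2 and 1 counts in *TATA/TATA* libraries, against 0, 0 and 1 counts in *lmo1*-/- libraries.

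In the *hoxda* cluster 3 of 7 genes were expressed, and all 3 were lower in *TATA/TATA*, as were 16.7% of all tested genes. Of the 3, *hoxd9a* reached 1 RPKM in *lmo1*-/- libraries only and so had to differ. *hoxd3a* and *hoxd4a*, whose mouse counterparts shape the first cervical vertebrae, were expressed in both genotypes. *hoxd3a* had 7.04 and 6.78 RPKM in *TATA/TATA* libraries, against 8.76, 7.95 and 9.45 RPKM in *lmo1*-/- libraries, a small difference (log2 fold change, -0.79; SE, 0.15; adjusted p = 0.0093 from edgeR) that did not pass with the authors' library totals (adjusted p = 0.22 from edgeR). *hoxd4a* had 3.22 and 3.18 RPKM in *TATA/TATA* libraries, against 11.5, 9.65 and 5.96 RPKM in *lmo1*-/- libraries (log2 fold change, -1.99; SE, 0.38; adjusted p = 0.0093 from edgeR). *hoxd9a*, with a mouse counterpart used in limbs and at lumbar levels, had 4 and 0 counts in *TATA/TATA* libraries, against 354, 434 and 18 counts in *lmo1*-/- libraries. It passed the threshold (log2 fold change, -7.75; SE, 1.96; adjusted p = 0.026 from edgeR), with a fold change that rests on the 4 counts of *TATA/TATA* library 1, and it lost the call without *lmo1*-/- library 1 or 2 (adjusted p = 0.056 and 0.071 from edgeR).

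The order of the *lmo1*-/- tumors in *hoxd4a* and *hoxd9a* was thus not that of *hoxb8a* and *hoxb9a*. Within *hoxba*, however, *hoxb5a* and *hoxb6a* had the order of *hoxd4a*, highest in library 1 and lowest in library 3. Library 3, which had the most *hoxb8a*, *hoxb9a* and *hoxc8a*, had the least *hoxd9a* and *hoxd4a* of the 3. The ratio of *hoxd4a* to *hoxd3a* was 0.457 and 0.468 in *TATA/TATA* libraries, against 1.32, 1.21 and 0.631 in *lmo1*-/- libraries. The RPKM-weighted mean paralog number of *hoxda* was 3.36 and 3.34 in *TATA/TATA* libraries, against 4.43, 4.72 and 3.45 in *lmo1*-/- libraries, and that of *hoxca* was 5.42 and 5.48 in *TATA/TATA* libraries, inside the span of 5.19, 5.69 and 6.40 in *lmo1*-/- libraries.

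**Figure D4:**
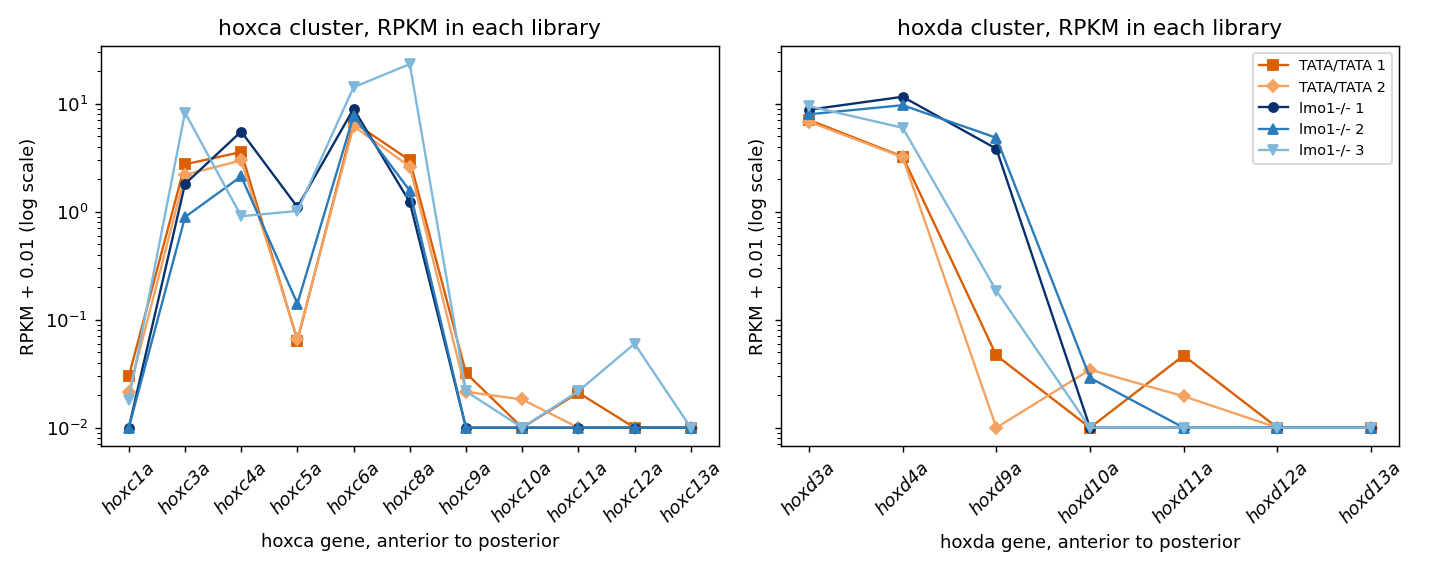
RPKM + 0.01 (log scale) of the 11 *hoxca* genes (left panel) and the 7 *hoxda* genes (right panel), anterior to posterior, in the 2 *TATA/TATA* libraries (orange) and the 3 *lmo1*-/- libraries (blue). *lmo1*-/- library 3 stands highest at *hoxc8a*, at 23.2 RPKM, and lowest of its genotype at *hoxd9a*, at 0.175 RPKM.

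The clusters *hoxaa*, *hoxab*, *hoxbb* and *hoxcb* were near silent. Their 19 genes never exceeded 18 counts or 0.111 RPKM, and 4 had no count in any library. Their counts summed to 63 and 44 in *TATA/TATA* libraries, against 2, 4 and 5 in *lmo1*-/- libraries, and 12 and 11 of the genes had a count in *TATA/TATA* libraries, against 2, 2 and 1 in *lmo1*-/- libraries. The traces thus lay mostly in *TATA/TATA* libraries, which also had more genes with a count among all 30647. Those numbered 23298 and 23277 in *TATA/TATA* libraries, against 20465, 20537 and 20969 in *lmo1*-/- libraries. Of the 19, *hoxb5b*, the duplicate of *hoxb5a*, had 14 and 7 counts in *TATA/TATA* libraries and 0 counts in each *lmo1*-/- library, and did not pass (adjusted p = 0.058 from edgeR). The genes of paralog groups 10 to 13, used in the tail, the limbs and fins and the urogenital tract, were also near 0. Of these 18 genes, 5 had no count in any library and no other than *hoxb10a* exceeded 5 counts.

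Counted over all members, 16 Hox genes had at least 1 RPKM in at least 2 libraries and were tested. These are not the same 16 as the expressed genes: *hoxc5a*, which averaged below 1 RPKM in both genotypes, was tested, and *hoxb10a* was not. Of the 16, 10 were lower in *TATA/TATA*, none was higher, and 6 did not pass the threshold, or 62.5% called, where 36.6% of all 13484 tested genes were called in either direction. Over all tested genes 16.7% were lower and 19.9% higher in *TATA/TATA*. With an unadjusted p under 0.05 from edgeR, 11 of the 16 Hox genes were past, beside 6238 of all 13484 tested genes. A negative fold change was found for 15 of the 16. Of the 16, 4 (*hoxb2a*, *hoxb9a*, *hoxc5a* and *hoxd9a*) reached 1 RPKM in *lmo1*-/- libraries only and so had to differ, and all 4 were called. Of the 12 that reached it in both genotypes, 6 were called. The share called among all genes that reached it in both genotypes was not computed, so the 6 of 12 have no matching background.

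The fit of all 25459 genes with a count held 41 Hox genes, of which 10 were lower in *TATA/TATA* and none was higher, or 24.4%. Over all genes of that fit 25.4% were called, 10.4% lower and 15.0% higher, so the share of Hox genes called there was near the background. All 10 calls were lower, but 22 of the 41 fold changes were positive and 19 negative, and their median was 0.39 on the log2 scale, beside 0.06 for all genes of that fit. Apart from *hoxb4a*, the 21 other positive genes had at most 18 counts in any library, so their fold changes depend on a few counts. In RPKM, values of both genotypes were fully separate for 11 of the 16 tested Hox genes, or 68.75%, and for 68.3% of all tested genes, so that share is not a result about the Hox genes. The 16 tested genes had a median of -1.23 on the log2 scale, beside -0.05 for all tested genes.

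The calls leaned on the *TATA/TATA* replicates and on the scaling. Without *TATA/TATA* library 1 or without library 2, 2 of the 16 were called, *hoxb7a* and *hoxb8a* both times, or 12.5%, beside 14.5% and 13.7% of all tested genes. The 10 called in the fit of all genes with a count also became 2 without either. With the library totals behind the authors' RPKM in place of TMM, the median of all tested genes shifted from -0.05 to 0.41 on the log2 scale. The Hox median was -0.78, and 7 of the 16 were called, all lower. That is 43.75%, beside 36.2% of all tested genes in either direction.

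**Figure D5:**
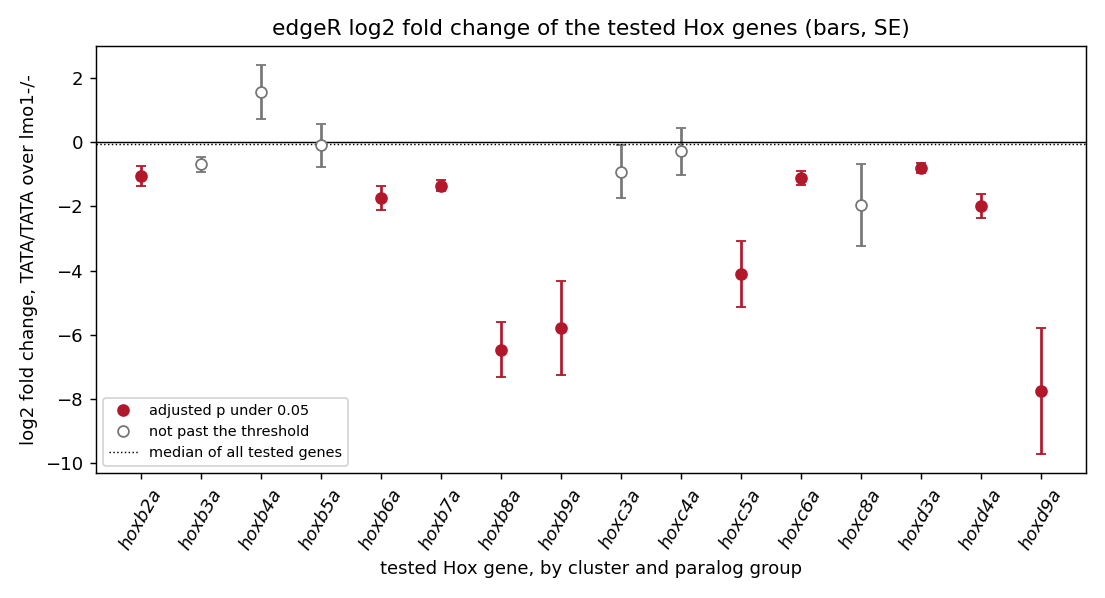
Log2 fold change, *TATA/TATA* over *lmo1*-/-, of the 16 tested Hox genes by cluster and paralog group, with SE as bars, from edgeR. Filled points had an adjusted p under 0.05, and the dotted line is the median of all tested genes, -0.05. The 10 called genes lie below 0, and *hoxb4a* alone lies above it, at 1.55. With the authors' library totals *hoxb5a* and *hoxc4a* also lay above 0.

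Hox proteins bind DNA with cofactors of the TALE homeodomain family, the Pbx, Meis and Pknox proteins. Of 15 listed TALE genes, which are these and *tgif1*, 9 were tested. Of the 9, 3 were lower in *TATA/TATA* and none was higher. The share of 3 in 9 is near the 36.6% of all tested genes called in either direction, while 16.7% of all tested genes were lower. *meis3*, which in zebrafish acts with Pbx and Hox proteins in the hindbrain, had 1.59 and 1.196 RPKM in *TATA/TATA* libraries, against 2.92, 2.11 and 2.94 RPKM in *lmo1*-/- libraries (log2 fold change, -1.38; SE, 0.23; adjusted p = 0.0062 from edgeR). *meis1b* had 0.804 and 0.688 RPKM in *TATA/TATA* libraries, against 2.36, 1.12 and 2.03 RPKM in *lmo1*-/- libraries (log2 fold change, -1.74; SE, 0.33; adjusted p = 0.0098 from edgeR). It reached 1 RPKM in *lmo1*-/- libraries only and so had to differ. *pknox1.2* had 1.41 and 1.37 RPKM in *TATA/TATA* libraries, against 1.94, 1.46 and 2.17 RPKM in *lmo1*-/- libraries (log2 fold change, -0.86; SE, 0.18; adjusted p = 0.013 from edgeR), and did not pass with the authors' library totals (adjusted p = 0.23). The most abundant of the listed genes, *tgif1*, *pknox1.1*, *pbx2*, *pbx4*, *pbx3b* and *pbx1a*, did not pass. The other *meis1* duplicate, *meis1a*, ran the opposite way at a low level, with 45 and 33 counts in *TATA/TATA* libraries, against 1, 3 and 0 counts in *lmo1*-/- libraries (adjusted p = 0.030 from edgeR in the fit of all genes with a count).

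Homeobox genes that mark other positions were low. None of 10 ParaHox and cluster-linked genes and none of 15 head and forebrain genes averaged 1 RPKM in either genotype. Of the first, which include the *cdx* genes that activate posterior Hox genes, 6 had no count in any library, and of the second 3 had none. None of either list was called in the fit of all genes with a count, where 4 and 12 of them had a count. The head genes *otx2*, *otx1b*, *otx1a* and *lhx2b* had 111, 56, 36 and 28 counts in *lmo1*-/- library 1. They had at most 7 counts in any other library. The ParaHox gene *pdx1* had 50 and 56 counts in *TATA/TATA* libraries, against 16, 4 and 0 counts in *lmo1*-/- libraries. The 5 *mir196* genes in the files, microRNAs that lie within Hox clusters, were at 0 throughout. Counting required a read of 100 bp to lie wholly within a gene, so a 0 at such short genes does not show that they were silent.

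Of 29 genes that regulate Hox expression, in the retinoic acid pathway, the hindbrain and the Polycomb and Trithorax complexes, 23 were tested. Of these, 6 were higher in *TATA/TATA* and 4 were lower. The share of 10 in 23 is near the 36.6% of all tested genes called in either direction. The 4 lower genes had the highest mean RPKM over all 5 libraries among those called. *kdm6bb*, a demethylase of the Polycomb mark, had 11.9 and 10.4 RPKM in *TATA/TATA* libraries, against 17.0, 10.7 and 15.6 RPKM in *lmo1*-/- libraries (log2 fold change, -0.82; SE, 0.19; adjusted p = 0.020 from edgeR). *cbx2*, a Polycomb subunit that reads the mark, had 9.25 and 9.52 RPKM in *TATA/TATA* libraries, against 10.9, 9.95 and 16.5 RPKM in *lmo1*-/- libraries (log2 fold change, -0.85; SE, 0.19; adjusted p = 0.018 from edgeR). *eed* (log2 fold change, -0.68) and *men1* (log2 fold change, -0.56) also passed, and all 4 lost the call with the authors' library totals (adjusted p = 0.27 for *kdm6bb*, 0.28 for *cbx2*, 0.49 for *eed* and 0.73 for *men1* from edgeR).

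The 6 higher genes were *raraa*, a retinoic acid receptor, *aldh1a2*, which makes retinoic acid, *cyp26c1*, which breaks it down, and *mafba*, *mafbb* and *egr2b*, which act on Hox genes in the hindbrain. All of them but *raraa* reached 1 RPKM in *TATA/TATA* libraries only and so had to differ. *raraa* passed by a narrow margin (log2 fold change, 0.56; SE, 0.17; adjusted p = 0.0499 from edgeR) and did not pass in the fit of all genes with a count (adjusted p = 0.086 from edgeR), and *aldh1a2* was also near the threshold (log2 fold change, 2.44; SE, 0.76; adjusted p = 0.049 from edgeR). Beyond the most abundant members, *mafba* and *cyp26c1* are given after their values were seen. *mafba*, which macrophages also express, had 9.12 and 8.87 RPKM in *TATA/TATA* libraries, against 0.478, 0.261 and 0.454 RPKM in *lmo1*-/- libraries (log2 fold change, 4.06; SE, 0.25; adjusted p = 0.00030 from edgeR). *cyp26c1* had 2059 and 1732 counts in *TATA/TATA* libraries, against 3, 2 and 1 counts in *lmo1*-/- libraries, which is at the floor.

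Markers of other cells differed between the genotypes. Over all tested genes 19.9% were higher and 16.7% lower in *TATA/TATA*. The summed level of 20 macrophage markers was 2919 to 3052 RPKM in *TATA/TATA* libraries, against 116 to 204 RPKM in *lmo1*-/- libraries, with 19 of 20 higher in *TATA/TATA* and none at 0 in any library. Of 6 neutrophil markers 5 were higher, at 148 to 158 RPKM in *TATA/TATA* libraries and 18.4 to 87.6 RPKM in *lmo1*-/- libraries. Of 5 tested lymphoid markers 4 were higher, and all 10 of the list summed to 21.1 to 25.8 RPKM in *TATA/TATA* libraries and 3.37 to 3.57 RPKM in *lmo1*-/- libraries, with *pax5* at 0 in every library and *cd79b* at 0 in *lmo1*-/-. Of the lymphoid list, 5 averaged 1 RPKM in *TATA/TATA* and 1 in *lmo1*-/-. The 11 fibroblast markers summed to 6.89 to 7.95 RPKM in *TATA/TATA* libraries and 0.854 to 1.75 RPKM in *lmo1*-/- libraries, and both that were tested were higher. None of the 11 averaged 1 RPKM in *lmo1*-/-. In both lists the level required for testing thus favoured genes high in *TATA/TATA*. The 8 endothelial markers summed to 3.97 to 4.41 RPKM in *TATA/TATA* libraries and 0.433 to 0.843 RPKM in *lmo1*-/- libraries. Of the 8, 2 averaged 1 RPKM in *TATA/TATA*, and the 1 that was tested was higher. Since no endothelial marker reached 1 RPKM in *lmo1*-/- libraries, the tested gene had to differ. The 9 Schwann and neural crest markers summed to 4.49 to 5.69 RPKM in *TATA/TATA* libraries and 0.603 to 0.748 RPKM in *lmo1*-/- libraries, with *foxd3* at 0 in *lmo1*-/-. Of the 9, 2 averaged 1 RPKM in *TATA/TATA*, and *egr2b*, also listed as a Hox regulator, had 2.29 and 3.99 RPKM of those sums. In the fit of all genes with a count, 2 of these markers were higher and 1 was lower in *TATA/TATA*. Of 5 tested erythroid and early blood genes, 1 was higher and 3 were lower in *TATA/TATA*.

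Markers of the interrenal, the steroid-producing tissue near which these tumors arise, were lower in *TATA/TATA* in sum. Its 8 markers summed to 17.6 to 21.1 RPKM in *TATA/TATA* libraries, against 26.0 to 64.9 RPKM in *lmo1*-/- libraries, with none at 0 in any library and 1 of 6 tested genes, *star*, lower in *TATA/TATA*. *star*, which carries cholesterol into mitochondria, had 13.3 and 15.4 RPKM in *TATA/TATA* libraries, against 51.9, 45.6 and 23.0 RPKM in *lmo1*-/- libraries. Among the *lmo1*-/- libraries it was thus lowest in the library with the most *hoxb8a*. *star* made up most of the interrenal sum in every library, so the difference in sum mainly reflects this gene. The 12 kidney tubule markers summed to 0.996 to 1.12 RPKM in *TATA/TATA* libraries and 0.343 to 1.33 RPKM in *lmo1*-/- libraries, none reached the tested level, and *pax8* was at 0 in *lmo1*-/-. The 21 tested sympathoadrenal markers had a median log2 fold change of -0.23, with 3 higher and 6 lower in *TATA/TATA*. That share is near the 36.6% of all tested genes called in either direction. Of the 6 lower, *ascl1a* reached 1 RPKM in *lmo1*-/- libraries only and so had to differ. The lower ones included the abundant genes *th* (log2 fold change, -0.999), *dbh* (-1.02), *hand2* (-1.40) and *stmn2a* (-1.50). The 3 higher were *insm1a* (2.91), *stmn2b* (1.63) and *ret* (1.25). With the authors' library totals *dbh* was at -0.57 (adjusted p = 0.038 from edgeR). On that scaling *th* was at -0.56 and did not pass (adjusted p = 0.095 from edgeR). The part of any of these marker sets in the Hox differences was not tested.

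Some Hox values are uncertain because the gene models overlap. In the RefSeq annotation of another zebrafish assembly, used for neighbours only, *hoxb3a* spanned *hoxb4a*, *hoxb5a* and *hoxb6a*, *hoxc3a* spanned *hoxc4a* to *hoxc9a*, *hoxd3a* overlapped *hoxd4a*, and *hoxb1b* overlapped *hoxb5b* and *hoxb6b*. Counting used the strand and dropped reads that fitted more than a single gene, so shared exons can lower the counts of each gene of such a pair. *hoxb7a*, *hoxb8a* and *hoxb9a* overlapped no other Hox gene there.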

How the data were processed

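Per the labels and the study's methods, RNA of sorted cells was depleted of ribosomal RNA and sequenced as strand-specific paired reads of 100 bp. The authors aligned them with HISAT2 2.1.0 to the danRer10 (GRCz10) genome and counted them per Ensembl gene name with htseq-count. The deposited files list each gene's raw count, exon length and RPKM for a library, which divides by mapped reads, of which 70.9% to 76.6% were counted on genes.

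Counts were tested with edgeR 4.0.16 (R 4.3.3), with TMM scaling and the quasi-likelihood F-test, over 13484 genes that reached 1 RPKM in 2 or more libraries, and Benjamini-Hochberg adjusted p under 0.05 was the threshold. TMM factors were 1.277 and 1.252 for *TATA/TATA* and 0.848, 0.766 and 0.963 for *lmo1*-/-, so fold changes differ from ratios of mean RPKM. A second fit took in every gene with a count (25459) and gave the values of lower genes. Fold changes (log2) set *TATA/TATA* over *lmo1*-/-, and their SE was derived from the F statistic. Alternatives were limma 3.58.1 on log2(RPKM + 0.1) and log2(RPKM + 1), DESeq2 1.42.0, median-ratio scaling, the library totals behind the deposited RPKM, no filter, a mean of at least 5 RPKM, the study's rule (unadjusted p under 0.05 and a log2 change of 0.45 or more), a replicate block and each library left out.

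All 48 symbols were found in the RefSeq table. Values in every library are given for genes averaging 1 RPKM in either genotype or past the threshold in either fit, and for at most 4 called genes of another list by mean RPKM. The members and lists were chosen with earlier results of these data known.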

Additional observations from a re-analysis of the deposited data

How the results depend on the processing

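The count of 10 Hox genes past the threshold became 5 with limma on log2(RPKM + 1), or 31.25%, beside 41.0% of all tested genes. It became between 7 and 10 on leaving out single *lmo1*-/- libraries. In the fit of all genes with a count, the 10 became between 2 and 13 on leaving out single libraries, 14 with a replicate block and 15 with the study's rule. The 3 TALE cofactors became 0 with a mean of at least 5 RPKM, and between 0 and 4 on leaving out libraries. The Hox median of -1.23 became -0.57 with limma on log2(RPKM + 0.1), -0.50 with limma on log2(RPKM + 1), -0.78 with the library totals behind the RPKM, and between -1.33 and -1.02 with each library left out. On TMM-scaled counts per kilobase the summed Hox level was 218 in *TATA/TATA* and 706 in *lmo1*-/-, beside 194 and 459.5 RPKM. The sign of *hoxb5a* turned to 0.71 and 0.69 with limma (pseudocounts 0.1 and 1) and to 0.39 with the totals, *hoxc3a* to 0.028 with limma (0.1), and *hoxc4a* to 0.53 and 0.33 with limma and 0.20 with the totals. The cause was not tested.

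The replicate numbers do not pair the libraries: the correlations of same-numbered deviations were 0.025 and 0.0081. With a replicate block 12 Hox genes were called, or 75.0%, beside 39.6% of all tested genes. The Hox median was then -1.06, and *hoxc3a* and *hoxc8a* turned to 0.40 and 0.47. With each library left out, *hoxb5a* ranged between -0.49 and 0.71, *hoxc3a* between -1.35 and 0.39, *hoxc4a* between -0.70 and 0.58 and *hoxc8a* between -2.47 and 0.49. Over 18 named genes, 162 alternatives kept direction and side of the threshold, 40 lost it, 10 crossed to it and 13 turned sign. *hoxb7a* and *hoxb8a* passed under every alternative. With a *TATA/TATA* library left out, the lone library is assumed to vary like the others. Groups of 2 and 3 libraries limit every call, and genes at a few counts were not resolved at this depth.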
